A study of Homo sapiens with 62 samples.

Results

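The genes described here run the folding and entry of secreted and membrane proteins in the endoplasmic reticulum (ER): chaperones, disulfide isomerases, the translocation channel, signal peptidase, degradation factors and the sensors and transcription factors of the unfolded protein response. They were chosen by name. Of 39 gene symbols, 38 had a row among the 55040 annotated rows of the files, each symbol a single row, and 36 reached a mean of 1 FPKM (fragments per kilobase of transcript and per megafragment, M, mapped) over the libraries and were tested among 10506 rows. MZB1 had no row under its symbol, and ERN1 and DNAJB9 stayed below the minimum level.

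All libraries came from GM12878, a human B-lymphoblastoid cell line immortalised with Epstein-Barr virus, with no treatment named in the labels. Of 62 samples 20 were analysed here, in 2 sets of 10. In each set, material of pools of 10 picked GM12878 cells was divided in 10 and the parts were amplified with a SMARTer kit as a single cell would be. The numbered splits are counted from 1 to 10 in their titles, and the unnumbered splits carry library numbers (232, 233 and 246 to 253). The titles of 9 of the 10 unnumbered splits, all but 247, and of no numbered split are marked as superseded by a later record, which was not analysed here. The labels name no difference between the sets in cells, culture or treatment. They do not say how many pools or cultures a set came from. Numbered splits 5 to 8 have laboratory numbers that lie apart from those of all other splits, and results without them are given where they differ. P-values below therefore measure the spread between splits, which may be technical, and not that between cells or cultures.

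In plasma cells and other secreting B cells the ER enlarges to fold antibody. A nascent secreted protein enters through the Sec61 channel, loses its signal peptide to signal peptidase, is bound by the Hsp70-type chaperone BiP (HSPA5) and the Hsp90-type chaperone GRP94 (HSP90B1), and has its sugars read by the lectins calnexin and calreticulin. When unfolded protein accumulates, the sensors IRE1 (ERN1), PERK (EIF2AK3) and ATF6 act through the transcription factors XBP1, ATF4 and cleaved ATF6. These factors act on chaperone promoters, in part through the ER stress response element, a CCAAT box and a CCACG box held at a fixed distance.

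Of the 5 genes called in the main comparison of the sets, 3 hold an exact copy of that element. The promoters of these 5 are shown because the results turn on them and because of that element. Each is the 250 bases before the annotated transcription start, from RefSeq on GRCh38.p14, written 5′ to 3′ on the strand of the gene. Capitals mark the boxes of each element, and a copy on the opposite strand reads CGTGG first and ATTGG last.
HSPA5 (chr9:125241344-125241593, minus strand): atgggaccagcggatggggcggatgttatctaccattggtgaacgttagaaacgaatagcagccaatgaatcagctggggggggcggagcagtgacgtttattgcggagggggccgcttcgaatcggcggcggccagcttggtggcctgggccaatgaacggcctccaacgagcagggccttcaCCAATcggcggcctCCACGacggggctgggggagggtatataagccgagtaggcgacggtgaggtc
HSP90B1 (chr12:103930160-103930409, plus strand): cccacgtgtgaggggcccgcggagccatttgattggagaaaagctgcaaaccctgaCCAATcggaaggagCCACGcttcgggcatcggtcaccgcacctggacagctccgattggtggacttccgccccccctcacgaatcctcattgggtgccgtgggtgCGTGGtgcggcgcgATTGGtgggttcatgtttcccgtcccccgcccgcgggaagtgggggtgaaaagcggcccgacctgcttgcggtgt
CALR (chr19:12938359-12938608, plus strand): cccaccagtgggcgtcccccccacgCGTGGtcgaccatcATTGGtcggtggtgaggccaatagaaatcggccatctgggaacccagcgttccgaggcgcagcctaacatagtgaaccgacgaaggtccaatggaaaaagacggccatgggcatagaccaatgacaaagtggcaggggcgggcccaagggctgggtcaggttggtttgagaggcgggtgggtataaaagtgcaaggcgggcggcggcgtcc
PPIB (chr15:64163023-64163272, minus strand): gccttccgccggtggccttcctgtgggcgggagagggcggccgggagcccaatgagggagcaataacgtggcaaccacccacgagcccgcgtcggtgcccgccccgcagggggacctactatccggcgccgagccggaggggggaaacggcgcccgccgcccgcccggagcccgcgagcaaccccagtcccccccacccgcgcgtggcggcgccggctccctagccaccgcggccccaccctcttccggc
SEC61B (chr9:99222032-99222281, plus strand): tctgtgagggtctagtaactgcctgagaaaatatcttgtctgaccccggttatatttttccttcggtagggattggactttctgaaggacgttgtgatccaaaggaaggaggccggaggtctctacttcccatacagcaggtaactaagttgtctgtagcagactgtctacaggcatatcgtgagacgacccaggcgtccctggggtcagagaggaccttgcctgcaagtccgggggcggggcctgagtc

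Promoter windows of 300 bases, 250 before the start and 50 after it, were found by symbol for 33 of the 38 genes. The element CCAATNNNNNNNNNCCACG, searched on both strands with N as any base, stood in 6 of the 33 (18.2%), against 27 of 35116 windows of all genes (0.0769%). The 6 were HSPA5, HSP90B1 with 2 copies, CALR, CANX, XBP1 and CRELD2. The shorter form ATTGGNCCACG stood in HYOU1 (2 copies), HERPUD1 and SDF2L1, which is 3 of 33 (9.09%) against 19 of 35116 (0.0541%). The genes were chosen by name and include chaperones, at whose promoters the element is known to act. A higher share than in all windows was thus set by that choice and is no result of these data. The copies differ in the bases between the boxes, as these read on the strand of the element.
HSPA5: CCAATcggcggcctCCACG
HSP90B1, far copy: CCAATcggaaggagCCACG
HSP90B1, near copy: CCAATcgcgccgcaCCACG
CALR: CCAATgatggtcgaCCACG
XBP1: CCAATcgcggagggCCACG
HYOU1, both copies: ATTGGaCCACG

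The copies began between 225 bases (CALR) and 52 bases (XBP1) before the start, and in HSPA5 the copy began 66 bases before it. Shorter sequences were far more common than the element. CCAAT alone, which the full element contains, stood in 27 of 33 windows (81.8%) against 34.6% of all windows, and ACGTG, a separate motif that the element does not contain, stood in 45.5% against 21.4%. The element TGATGNAAT, bound by CHOP (the product of DDIT3) with ATF4, was in none of the 33 windows and in 0.991% of all. A match describes these letters and says nothing of a factor being bound, and no match says only that the letters are not in the window.

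**Figure D1:**
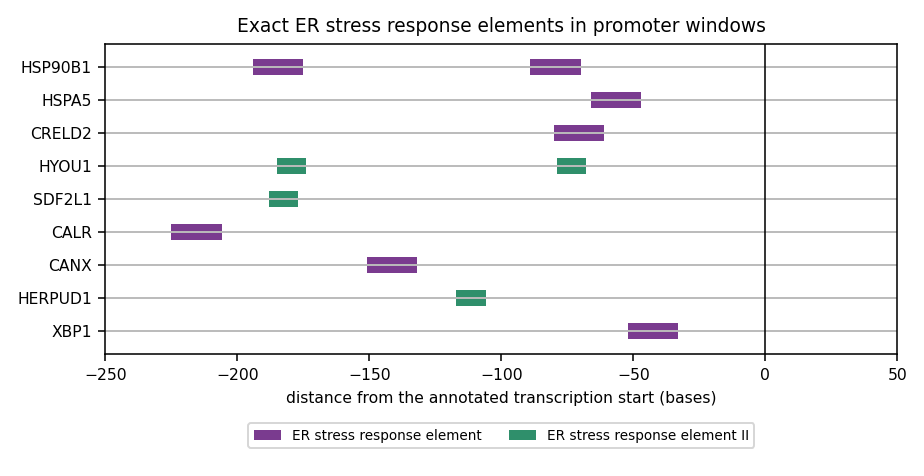
Position of exact ER stress response elements in the promoter windows of 9 genes. The horizontal axis is the distance from the annotated transcription start in bases, each line is a gene, purple bars are the full element and green bars the shorter form. All copies lie before the start, and HSP90B1 and HYOU1 have 2 each.

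The libraries differed between sets beyond these genes. Depth, estimated from the authors' confidence bounds of mitochondrial genes, was 11.8 to 20.6 M fragments in the numbered splits and 23.3 to 38.7 M in the unnumbered splits, other than 7.79 M in split 252 and 0.128 M in split 247. In split 247 a single fragment per kilobase is worth 7.83 FPKM. Numbered split 9 and unnumbered split 253 had the fewest rows at 1 FPKM or more of their sets, 3771 and 2942. Set medians were 5146 and 4486.5. The median-ratio size factors of splits 9 and 253, 0.762 and 0.596, were the lowest of all libraries. Mitochondrial genes took 3.62% to 6.66% of summed FPKM in numbered splits and 6.45% to 8.51% in unnumbered ones. Of the B-cell markers, 9 of 10 were at 1 FPKM or more in at least 5 splits, and their summed level was 8015 to 13311 FPKM (numbered) and 3787 to 6698 FPKM (unnumbered). Markers of plasma cells went the other way, with a sum over 6 genes of 39.6 to 372 FPKM against 682 to 1591. IGJ, PRDM1 and IRF4 were called higher in the unnumbered splits, while CD38 was called higher in the numbered splits and SDC1 was at 0 in 9 numbered and 7 unnumbered splits. T-cell markers CD3D, CD3G and CD8A were below 1 FPKM in every split, with a list sum of 0.960 to 239 FPKM against 10.3 to 590 that came mainly from TRAC. Hemoglobin genes were at 0 throughout, and the monocyte and fibroblast sums stayed at or below 2.75 FPKM.

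The comparison between the sets asks which of these genes stood at another level in the unnumbered pool splits. HSPA5, HSP90B1, CALR and PPIB, which are 3 chaperones and a prolyl isomerase of the ER lumen, were higher in the unnumbered splits, with mean FPKM from 2.25-fold (PPIB) to 19.6-fold (HSPA5) that of the numbered splits. The fold of HSPA5 depends on numbered split 2, without which it is 66.3-fold. SEC61B, a small subunit of the translocation channel, was higher in the numbered splits by 3.72-fold, a call that held in only 10 of 31 alternatives. These calls used limma on log2(FPKM + 1) with an adjusted p under 0.05 over all rows tested. They amount to 4 of 36 genes (11.1%) higher in the unnumbered splits, where 1.38% of all rows were called (145), and 1 of 36 higher in the numbered splits, where 3.93% were (413). The remaining 31 genes did not pass. In a split, fewer cells expressing a gene, less RNA per cell and loss of RNA in dividing or amplification cannot be told apart.

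Over all rows the balance of calls moved with the scaling: 316 and 191 rows were higher in the numbered and unnumbered splits after median-ratio size factors, 345 and 217 after scaling to TPM, and 226 and 234 once the trend with transcript length was taken out. The median log2 difference of all rows, numbered minus unnumbered, was 0.35, then 0.26, 0.24 and 0.01. The 36 genes had a median of -0.36, with 22 below 0 (61.1%) against 40.1% of all rows. Under those scalings their median was -0.56, -0.54 and -0.68. HSPA5, HSP90B1, CALR and PPIB kept their direction and their call under each. SEC61B kept its direction but lost its call under each, with limma adjusted p of 0.0631, 0.0568 and 0.138.

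**Figure D2:**
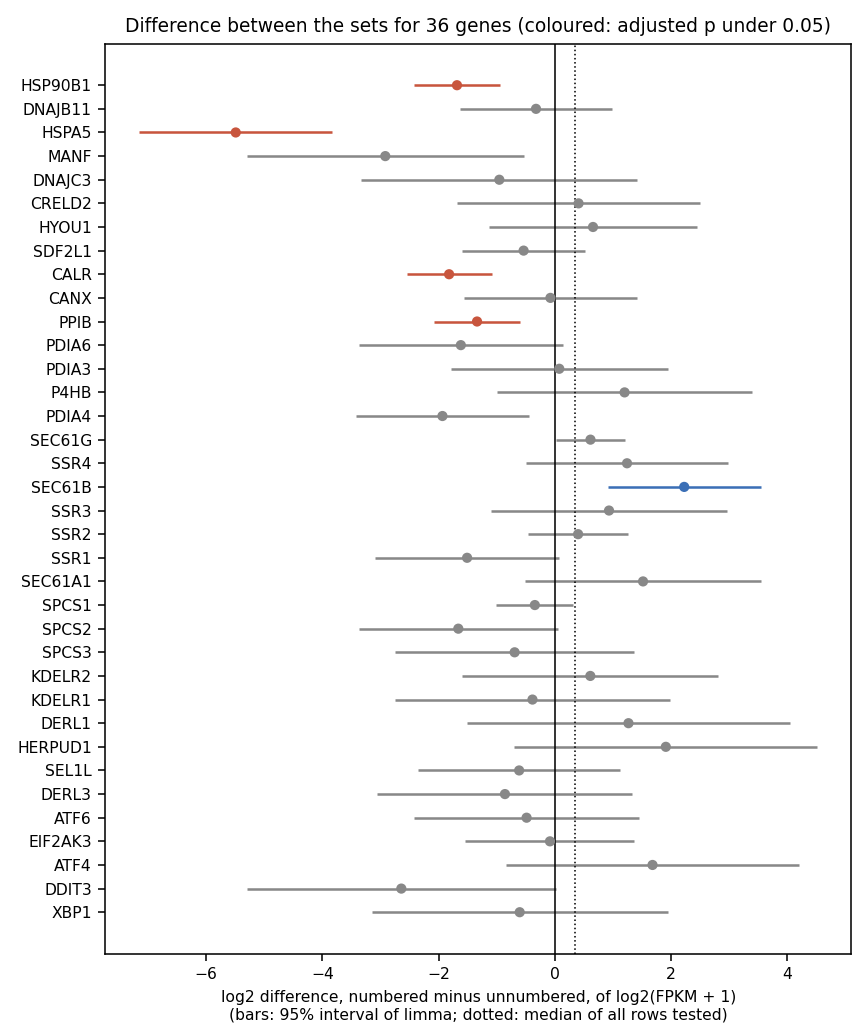
Difference between the sets for the 36 tested genes, by role. The horizontal axis is the log2 difference of log2(FPKM + 1), numbered minus unnumbered; points are estimates, bars their 95% intervals, and the dotted line is the median of all rows (0.35). Red marks HSP90B1, HSPA5, CALR and PPIB, left of 0, and blue marks SEC61B, right of 0.

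HSPA5, whose protein BiP is the main ER Hsp70 and also holds the stress sensors inactive, had the largest difference of the 36. It ran from 0 through a median of 0.185 to 54.2 FPKM in the numbered splits and from 19.4 through 139 to 267 FPKM in the unnumbered splits. In the numbered set 6 splits were below 1 FPKM, and 9 of 10 unnumbered splits lay above the highest numbered value. The sets overlapped through unnumbered split 253, at 19.4 FPKM, and numbered split 2, at 54.2 FPKM. The means were 7.38 ± 16.8 FPKM (SD, n = 10) and 144 ± 67.0 FPKM (SD, n = 10), a log2 difference of -5.49 with SE 0.805 and a limma adjusted p of 4.07e-05. Within the sets HSPA5 was at 0.0862 to 11.5 FPKM in numbered splits 5 to 8, at 0 to 54.2 in the other 6 numbered splits, at 116 and 175 in unnumbered splits 232 and 233, and at 19.4 to 267 in the other 8. Its locus in the files is chr9:127997132-128003609, on a build that the sources used here do not give, so it is not to be set against the promoter coordinates above.

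HSP90B1, the ER Hsp90 that folds Toll-like receptors and integrins, differed by less, and in every split. It ranged from 44.8 through a median of 113 to 191 FPKM in the numbered splits and from 196 through 382 to 620 FPKM in the unnumbered splits. The ranges did not touch. It was the single gene of the 36 for which this held, where 0.352% of all rows had every unnumbered split above every numbered one and 1.65% the reverse. The means were 122 ± 41.5 and 395 ± 141 FPKM (SD, n = 10 each), a log2 difference of -1.68 with SE 0.357 and a limma adjusted p of 0.00322. Its locus is chr12:104323885-104347423.

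The other genes of that role did not pass the test. MANF, a small secreted co-chaperone that regulates BiP, was at 0 in 5 numbered splits and reached 200 FPKM, and it ran from 2.02 through 82.3 to 241 FPKM in the unnumbered splits. Its log2 difference of -2.92 had an unadjusted limma p of 0.0186 and an adjusted p of 0.178. DNAJB11, an Hsp40 partner of BiP, was found in all 20 splits, with medians of 58.8 and 101 FPKM and a log2 difference of -0.32 (95% interval -1.63 to 0.99). DNAJC3, CRELD2, HYOU1 and SDF2L1 were each under 1 FPKM in at least 6 splits of each set. DNAJB9, an Hsp40 that represses IRE1, was at or next to 0 in all 20 splits. For the whole role, 6 of 8 tested genes lay below 0 with a median of -0.75, and 6 to 7 of 8 under the other scalings. Summed over the 9 genes, numbered splits held 168 to 584 FPKM and unnumbered ones 616 to 1010 FPKM, and by mean level HSP90B1 and DNAJB11 led the numbered sums and HSP90B1 and HSPA5 the unnumbered ones.

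**Figure D3:**
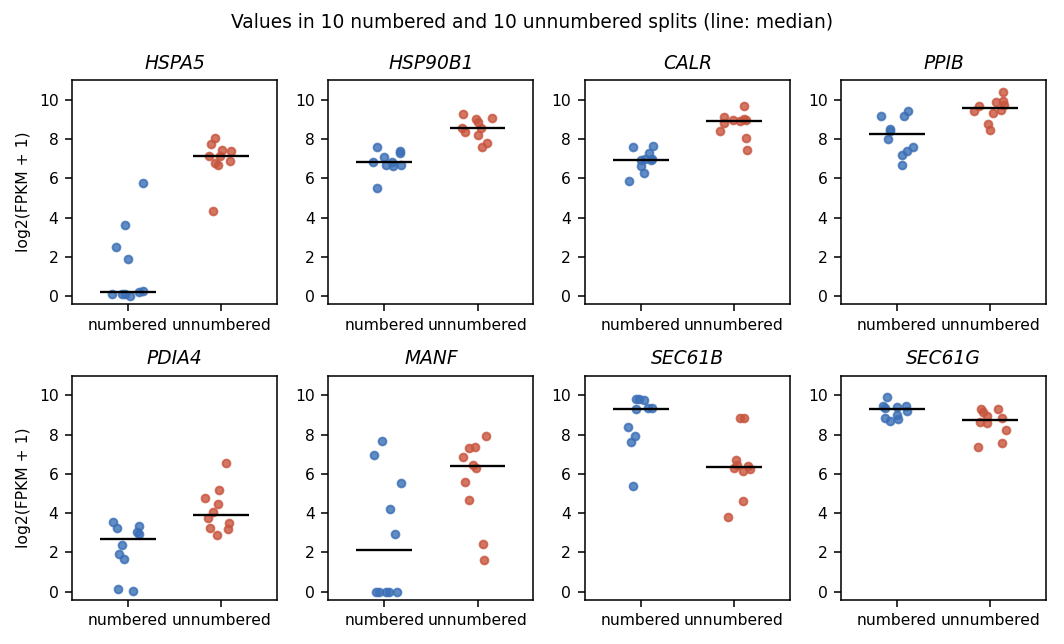
Values in each split for 8 genes. The vertical axis is log2(FPKM + 1), blue points are 10 numbered and red points 10 unnumbered splits, moved sideways at random, and lines are medians. HSP90B1 separates fully, HSPA5 is near 0 in most numbered splits, and SEC61B and SEC61G are the 2 with the higher median in the numbered set.

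Of the lectin chaperones CALR passed and CANX did not. CALR, the soluble lectin calreticulin, ranged from 58.2 through a median of 124 to 203 FPKM in the numbered splits and from 173 through 493 to 839 in the unnumbered splits. The ranges met only between 173 and 203 FPKM, and 9 of 10 unnumbered splits lay above all numbered ones. The mean was 3.60-fold higher in the unnumbered splits, with a log2 difference of -1.82, SE 0.356 and a limma adjusted p of 0.00134 (chr19:13049414-13055304). Its membrane-bound relative CANX, calnexin, was detected in all 20 splits with medians of 104 and 151 FPKM, and its log2 difference was -0.08 (95% interval -1.57 to 1.41; limma adjusted p 0.963). Whether the 2 lectins differ from each other in this was not tested.

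Among the isomerases PPIB, cyclophilin B, a prolyl isomerase that assists collagen and other secreted proteins, was the most abundant. It ran from 104 through a median of 303 to 695 FPKM in the numbered splits and from 351 through 763 to 1331 in the unnumbered splits. The sets overlapped, with 6 unnumbered splits above every numbered one. The log2 difference was -1.34 with SE 0.357 and a limma adjusted p of 0.0233 (chr15:64448011-64455404). The call is the least secure of the 4: without numbered splits 5 to 8 the log2 difference was -1.41 with an adjusted p of 0.0556, and without splits 9, 247 and 253 it was -1.23 with an adjusted p of 0.0572.

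Of the disulfide isomerases, none passed. PDIA4 came closest: it ran from 0.0316 through 5.44 to 10.7 FPKM in the numbered splits and from 6.35 through 14 to 93.8 in the unnumbered splits, and all 10 unnumbered splits lay above the numbered median. Its log2 difference of -1.93 had an adjusted p of 0.142 by limma and 0.0282 by the exact rank-sum test. PDIA6 had medians of 85.6 and 165 FPKM, with a log2 difference of -1.62 and a limma adjusted p of 0.352. PDIA3, the partner of the lectins for glycoproteins, was alike in mean, 81.9 ± 64.9 and 80.7 ± 65.8 FPKM (SD, n = 10 each), with a log2 difference of 0.08 (95% interval -1.79 to 1.95) that was -0.13 with size factors. A pseudogene row, PDIA3P, reached 49.6 and 46.8 FPKM in the sets, and how reads were shared between it and PDIA3 is not given. P4HB, the founding protein disulfide isomerase, was below 1 FPKM in 6 numbered and 8 unnumbered splits, while its highest values were 157 and 156 FPKM.

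The translocation channel and its associated proteins were high in both sets, with SEC61A1 the exception. Of 7 genes, 6 lay above 0, with a median log2 difference of 0.93 against 0.35 for all rows, and SEC61B passed. With the length trend removed 5 of 7 lay above 0, with a median of 0.41. SEC61B ranged from 40.7 through a median of 641 to 893 FPKM in the numbered splits and from 12.9 through 80.7 to 460 in the unnumbered splits. The ranges overlapped widely, yet 9 of 10 numbered splits were above the unnumbered median. The log2 difference was 2.23 with SE 0.638 and a limma adjusted p of 0.0381 (chr9:101984346-101992897). This call was lost in 21 of 31 alternatives, among them size factors (adjusted p 0.0631), the removal of the length trend (0.138) and leaving out numbered splits 5 to 8 (0.185), while its log2 difference stayed between 1.69 and 2.59.

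SEC61G, the third channel subunit, was among the steadiest genes of the module, at 417 through 631 to 956 FPKM and 165 through 428 to 640 FPKM. Its log2 difference of 0.61 had an unadjusted limma p of 0.0438 and an adjusted p of 0.288, and with the length trend removed it was 0.06. SEC61A1, which forms the pore itself, was low by contrast, with medians of 8.76 and 0 FPKM. The translocon-associated proteins SSR2, SSR3 and SSR4 had medians of 363, 382 and 541 FPKM in the numbered and 200, 172 and 504 FPKM in the unnumbered splits, and none passed. SSR1 lay on the other side, with medians of 110 and 329 FPKM, a log2 difference of -1.51 and a limma adjusted p of 0.331.

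Rows with shorter transcripts had higher log2 differences, and most of the channel genes are short. Over all rows with a transcript length under 1000 bases the median log2 difference was 0.56, from 1000 to 2000 bases 0.41 and beyond 2000 bases 0.20. The genes of the module gave 0.61 (9 genes), -0.73 (14 genes) and -0.49 (13 genes) in these bands. The short members thus lay near the rows of their length and the longer ones below them, a description with no test.

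Signal peptidase was high in both sets. SPCS1, a small accessory subunit, was found in every split, with medians of 400 and 474 FPKM and a log2 difference of -0.34 (95% interval -1.004 to 0.316). SPCS2 had medians of 255 and 626 FPKM and a log2 difference of -1.66 with a limma adjusted p of 0.324. SPCS3, an accessory subunit too, had medians of 22.3 and 66.6 FPKM. All 3 lay below 0 and none passed. The KDEL receptors, which return chaperones from the Golgi, were patchy, KDELR1 with 5 and 4 splits at 1 FPKM or more and KDELR2 with 7 and 6.

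Of the 4 genes for ER-associated degradation none passed. SEL1L, the scaffold of the HRD1 ligase, was found in 8 numbered and 10 unnumbered splits, with medians of 14.6 and 24.5 FPKM. HERPUD1, a stress-induced membrane partner of that ligase, had medians of 16.0 and 0.0177 FPKM and a log2 difference of 1.91 with a limma adjusted p of 0.477. DERL1, a membrane component of retrotranslocation, was under 1 FPKM in 5 numbered and 7 unnumbered splits but reached 595 FPKM in numbered split 9. DERL3 was at 1 FPKM or more in 1 numbered and 2 unnumbered splits.

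The transcripts of the sensors were low. ERN1 reached 1.04 FPKM in a single split and was below 1 in the other 19. EIF2AK3 was at 1 FPKM or more in 3 numbered and 4 unnumbered splits, and ATF6 in 5 and 7, with medians of 2.95 and 5.22 FPKM. Neither passed the test, with log2 differences of -0.08 and -0.49.

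The transcription factors ranged within each set from near 0 to a highest value of at least 86.8 FPKM. ATF4, translated when PERK slows general translation, had medians of 143 and 72.5 FPKM and ranged from 0.211 to 302 and from 0.0239 to 348 FPKM. DDIT3, which encodes the stress factor CHOP, was at 0 in 6 numbered splits with a highest value of 86.8 FPKM, and in the unnumbered splits its median was 71.9 and its highest value 146 FPKM. Its log2 difference of -2.64 had a limma adjusted p of 0.312. XBP1, which was at 1 FPKM or more in 5 and 6 splits, had its highest values in numbered split 9 (186 FPKM) and unnumbered split 246 (131 FPKM), with medians of 1.77 and 1.89 FPKM and a log2 difference of -0.60 (95% interval -3.15 to 1.95). FPKM per gene does not tell spliced from unspliced XBP1.

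**Figure D4:**
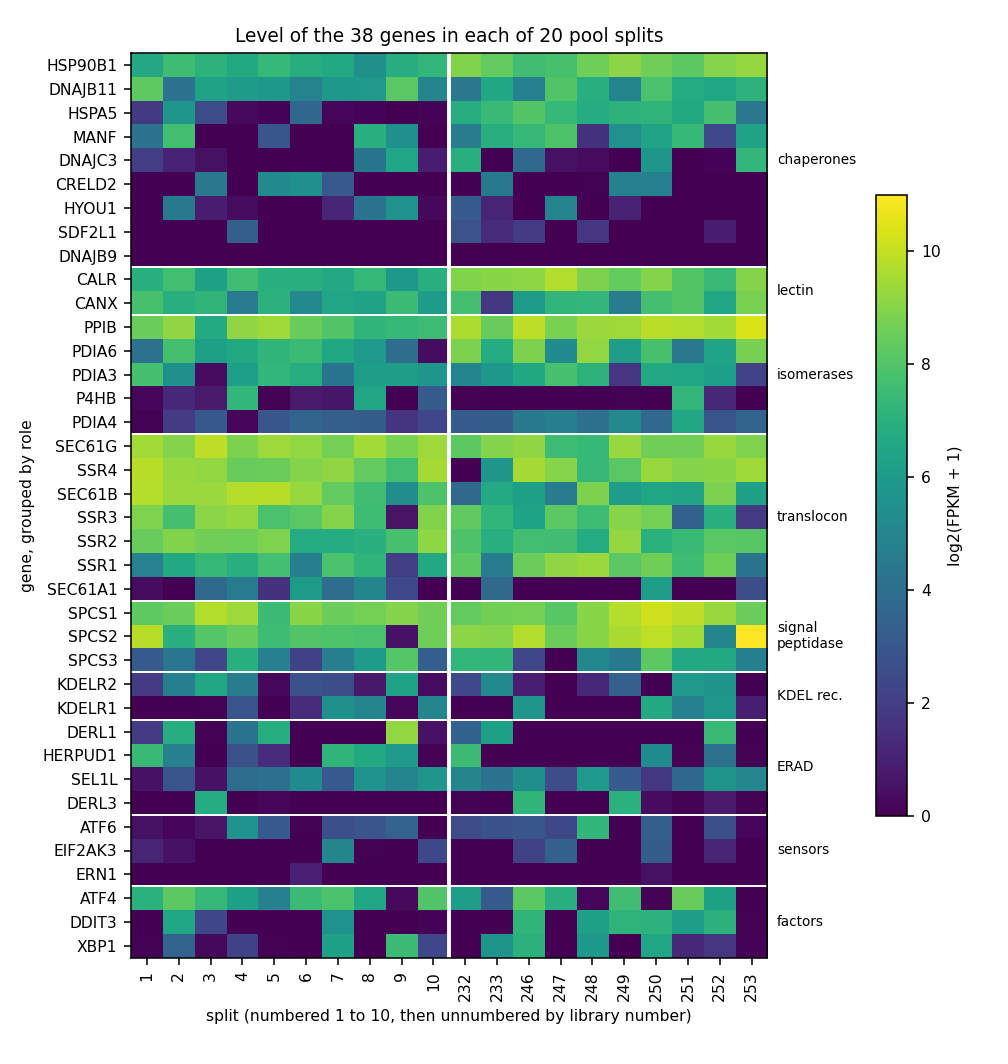
Level of each of the 38 genes in each split. Rows are genes grouped by role, columns are the 10 numbered splits and then the 10 unnumbered splits, and colour is log2(FPKM + 1) from 0 to 11. HSPA5 is dark in most numbered columns and bright in the unnumbered ones, whereas DERL1, XBP1 and DDIT3 switch between dark and bright within both sets.

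The number of module genes detected per split overlapped between the sets. A split held 22 to 29 of the 38 genes at 1 FPKM or more in the numbered set (median 25) and 22 to 30 in the unnumbered set (median 26.5). In split 247 a single fragment per kilobase is worth 7.83 FPKM, so this mark is not a like threshold there. That split had 23 genes at 1 FPKM or more but 17 with a lower confidence bound above 0, where the set medians were 26.5 (numbered) and 27 (unnumbered). Of the genes, 12 were found in all 10 numbered splits, 18 in all 10 unnumbered splits and 10 in all 20. DNAJB9 was the gene found in none. Rows found in every split of a set were not counted over all rows. Summed over the 38 genes, the module took 0.277% to 0.430% of summed FPKM in the numbered and 0.376% to 0.688% in the unnumbered splits. The order of mean levels differed: SEC61G (612 ± 166 FPKM), SEC61B (539 ± 314), SSR4 (519 ± 211) and SPCS1 (455 ± 193) led the numbered set, and PPIB (773 ± 280), SPCS2 (735 ± 529), SPCS1 (596 ± 304) and CALR (463 ± 181) led the unnumbered set (SD, n = 10 each). Neighbours in either order lay within each other's SD.

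Within a set many genes were present in force in some splits and missing from others. In the numbered set 23 of 38 genes reached 10 FPKM in a split while being under 1 FPKM in another, and in the unnumbered set 16 did. With 100 FPKM as the upper mark the counts were 11 and 12. These counts were not made over all rows, so they do not set the module apart from other genes. Of the 380 values in each set, 32.6% and 30.0% were under 1 FPKM, 11.3% and 10.5% lay from 1 to 10 FPKM, and 56.1% and 59.5% were at 10 FPKM or more. Among all tested rows 52.5% and 60.6% of values were under 1 FPKM, and 35.3% and 30.6% were at 10 FPKM or more.

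The coefficient of variation over 10 splits (SD divided by mean) fell with the level, as it did in rows of like mean, within 1.5 times. HSP90B1 and CALR were steadier than such rows in the numbered set, at 0.340 and 0.361 against medians of 0.813 and 0.799. HSPA5 had 2.28 in the numbered set, near the 2.17 of rows of like level, and 0.464 in the unnumbered set against 0.917. PDIA4 stood out for its low spread at a low level in the numbered set, 0.742 against 2.30, and SEL1L had 0.917 against 1.64 there and 0.772 against 1.81 in the unnumbered set. The most uneven genes at their level were DERL1 in the numbered set, 2.19 against 0.933, and SPCS2 in the unnumbered set, 0.719 against 0.398.

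**Figure D5:**
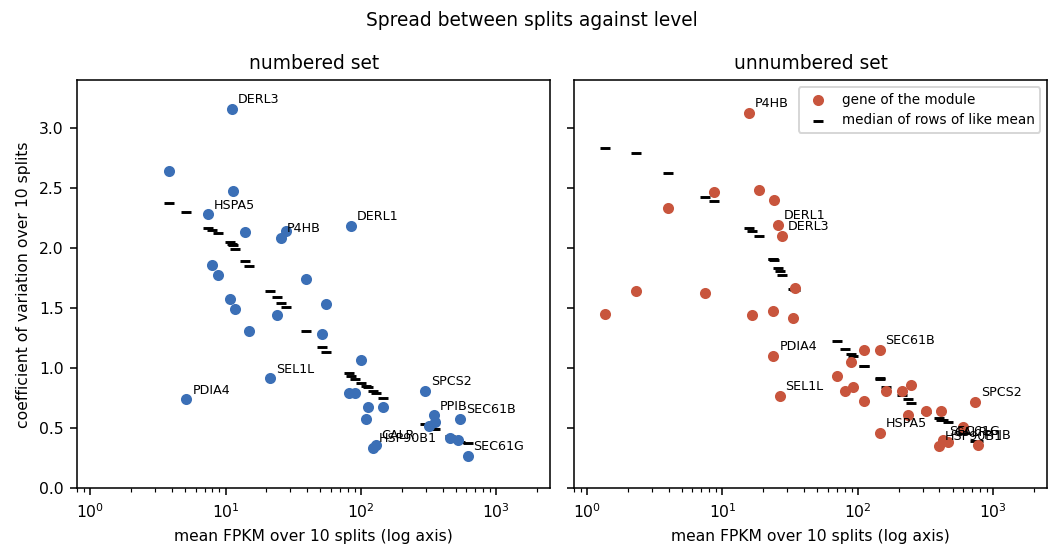
Coefficient of variation over 10 splits against mean FPKM (log axis) for genes of the module with a mean of 1 FPKM or more, in the numbered (left) and unnumbered (right) set. Coloured points are genes and black dashes the median of rows of like mean. PDIA4 and SEL1L lie below the dashes in both sets, and DERL1 lies above them, furthest in the numbered set (2.19).

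The genes with an exact ER stress response element in the window did not all pass and did not all lie on the same side of 0. Of the 9 with either form, all tested, 3 were higher in the unnumbered splits (HSPA5, HSP90B1, CALR) and none in the numbered splits, with log2 differences from -5.49 to 1.91 and a median of -0.54. Over all rows 1.38% and 3.93% were called in these directions and the median was 0.35. Of 22 tested genes with a window and no exact element, 1 was higher in the unnumbered splits (PPIB) and 1 in the numbered splits (SEC61B), with a median of -0.44. Of the other 6 genes with an element, CANX, XBP1, CRELD2, HYOU1, HERPUD1 and SDF2L1, none passed, and 3 of them lay above 0. XBP1, CRELD2, HYOU1 and SDF2L1 had medians of at most 1.89 FPKM in either set. HERPUD1 had a median of 0.0177 FPKM in the unnumbered splits and a 95% interval of -0.70 to 4.52. At such levels and intervals, not passing says little about whether these genes shifted.

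The rest of the ER pathway was read from lists of 109 further genes. Of these 98 were tested and none passed in either direction by limma, where 3.93% of all rows were called higher in the numbered and 1.38% in the unnumbered splits. At an unadjusted limma p under 0.05 there were 3 higher in the numbered (3.06%, against 11.6% of all rows) and 9 in the unnumbered splits (9.18%, against 4.76%). The exact rank-sum test, which called 6.72% and 2.35% of all rows, called 1 each way: DDIT4, a target of ATF4 (adjusted p 0.0479), higher in the numbered splits, and SRPRB, a subunit of the receptor for the signal recognition particle (adjusted p 0.0434), higher in the unnumbered splits. These 2 were named after their values were seen. The median log2 difference of the 98 was -0.01, with 49 on each side of 0, where 40.1% of all rows lay below it and their median was 0.35. The lists for the signal recognition particle and its receptor (6 of 8 below 0, median -0.78) and for cargo transport from ER to Golgi (9 of 12 below 0, median -1.11) had the lowest medians of the 8 lists, also under the other scalings.

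The most abundant gene of each list gave a similar range. OST4, a small subunit of oligosaccharyltransferase, had medians of 1216 and 1062 FPKM, and SRP14, of the signal recognition particle, 796 and 778 FPKM, with log2 differences of 0.24 and -0.02, the first of which was -0.30 with the length trend removed. SEC11C, a catalytic signal peptidase subunit, had medians of 241 and 269 FPKM, and EDEM1, which sends glycoproteins to degradation, 34.1 and 33.9 FPKM. EIF2S1, the translation factor subunit that PERK phosphorylates, had medians of 139 and 739 FPKM, a log2 difference of -2.47 and a limma adjusted p of 0.126. TMX1, a membrane-bound disulfide isomerase, and TMED10, a cargo receptor, had log2 differences of -1.82 and -2.001 with limma adjusted p of 0.219 and 0.300. VIMP, a membrane partner in degradation, was the most uneven, with highest values of 5007 and 876 FPKM and splits at 0 in both sets.

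MZB1, an ER protein of marginal zone B cells and plasma cells, was not matched by symbol and is no part of the counts above. The row with its Ensembl identifier carries another symbol, RP11-1280I22.1, and ran from 2.44 through a median of 86.2 to 209 FPKM in the numbered splits and from 0 through 137 to 208 in the unnumbered splits. The log2 difference was -0.68 with a limma adjusted p of 0.692, and the value of 0 was in split 247, the shallowest library.

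The higher HSPA5, HSP90B1, CALR and PPIB of the unnumbered splits stood beside other differences. IGJ, PRDM1 and IRF4 were higher there, and MS4A1, CD79A, CD74 and HLA-DRA lower. CD38, of the same plasma-cell list as IGJ, was lower there too, and SDC1 and TNFRSF17 of that list were not called. The unnumbered set also had a higher mitochondrial share and, in most splits, a greater depth. The part of these differences in the higher levels of HSPA5, HSP90B1, CALR and PPIB was not tested. Without numbered split 9 and unnumbered splits 247 and 253, the log2 differences of HSPA5, HSP90B1 and CALR were -5.60, -1.68 and -1.55, and without numbered splits 5 to 8 they were -5.20, -1.52 and -1.85, each with a limma adjusted p under the threshold.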

How the data were processed

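The authors deposited FPKM per gene with confidence bounds for each split, for which the submitters' processing notes list TopHat 1.4.1 and Cufflinks 2.0.2. Their genome build is not given in the sources at hand. Rows marked LOWDATA in every library (5797) or FAIL in any (128) were left out, leaving 49115, of which 10506 had a mean of 1 FPKM or more. No module gene had a status other than OK. From these values log2(FPKM + 1) was computed and the sets compared with limma 3.58.1 (trended variance, R 4.3.3), without covariates, with Benjamini-Hochberg adjustment at 0.05; a log2 difference on this scale understates the change of low genes. The fit was tested on simulated data with independent, normally distributed log2 values. These lack the mix of values near 0 and high values seen in the splits, so the fit was not tested for such rows. Depth was estimated from the bounds of 10 mitochondrial genes; no interval per value was computed from it. Transcript lengths came from GENCODE 29 (10306 of the tested rows), promoters from RefSeq. Python 3.11.15, numpy 2.4.6 and pandas 2.3.3 did the rest. Alternatives were other pseudocounts, filters, scalings, a rank test and left-out splits. The genes and lists were chosen with earlier results of these data known. All module genes are named, and of each further ER list the most abundant gene and any past the threshold. The other 42 samples were not analysed here.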

Additional observations from a re-analysis of the deposited data

Results flagged for a closer look

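In 17 of 75 sets of 10 values examined, the highest or lowest split stood apart from the others on the log2(FPKM + 1) scale. Chance would give about 3.75 if the values were normally distributed. Many of the sets mix very low and high values, so that number does not apply to them. Whether 17 is more than chance gives was therefore not tested. Of the 17, 3 were in genes called between the sets. HSPA5 was at 19.4 FPKM in unnumbered split 253, with the next lowest at 101, and SEC61B at 40.7 FPKM in numbered split 9, with the next at 194. HSP90B1 was at 44.8 FPKM in numbered split 8, below a next lowest of 99.5.

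Other genes were low in a single split. Numbered split 9 had ATF4 at 0.211 FPKM, SSR3 at 0.501 and SPCS2 at 0.447. PDIA3 was at 0.260 FPKM in numbered split 3, PDIA6 at 0.279 in numbered split 10, SSR4 at 0 in unnumbered split 232 and SPCS2 at 32.4 in unnumbered split 252, where the next lowest was 372.

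Other genes were high in a single split. P4HB was at 156 FPKM in unnumbered split 251, ATF6 at 151 in unnumbered split 248, EIF2AK3 at 32.4 in numbered split 7, SDF2L1 at 9.04 in numbered split 4 and DERL3 at 111 in numbered split 3. ERN1 was at 1.04 FPKM in numbered split 6 and at 0.418 in unnumbered split 250.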

How the results depend on the processing

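The calls of HSPA5, CALR and HSP90B1 held in all 31 alternatives, with log2 differences of -7.07 to -3.29, -2.08 to -1.55 and -2.09 to -1.52. PPIB held in 28 of 31, with a log2 difference of -1.81 to -1.18 in all; it was lost without numbered splits 5 to 8, with these as a covariate (adjusted p 0.0636) and without splits 9, 247 and 253 together. SEC61B held in 10 of 31. The number of genes called higher in the numbered splits was therefore 0 with no filter, size factors, TPM, the length trend removed, without numbered splits 5 to 8, with these as a covariate and by the rank-sum test, and 0 to 1 when each split was left out in turn. PDIA4 passed in 1 alternative, the rank-sum test. Other ER genes called by that test were 1 in each direction, against 0. The median number of genes detected was 28.5 and 27 in the numbered and unnumbered sets at 0.1 FPKM, and 21.5 and 22.5 at 10 FPKM, so the order at 0.1 FPKM is the reverse of that at 1 and 10 FPKM. Over all alternatives, 1044 of the values for single genes stayed on their side, 41 moved, 24 lost the call, 1 gained it and no called value reversed; the causes were not tested.

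Over all rows, 413 and 145 calls (numbered, unnumbered) became 706 and 247 by the rank-sum test, 263 and 96 without numbered splits 5 to 8, 287 and 99 with these as a covariate, and 226 and 234 with the length trend removed. No paired analysis was possible because the sets share no replicate numbers. Split 247, at 0.128 M fragments, limits what its low values can show. Runs of experiment numbers hold splits of 1 set only, so run and set cannot be told apart.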

Other observations

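Of the 17 genes found in at least 9 numbered splits, split 9 had the lowest value for 7, more than any other split of that set, and the highest for 1. Over all rows, split 9 also had the fewest at 1 FPKM or more of the numbered set, 3771 against a median of 5146. The same split held the highest DERL1, at 595 FPKM, and the highest XBP1, at 186 FPKM. In the unnumbered set no split had the lowest value for more than 3 of 20 such genes.

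IGJ, the joining chain of secreted antibody, ran from about 0 through a median of 0.0975 to 209 FPKM in the numbered splits and from 190 through 459 to 828 in the unnumbered splits, with a log2 difference of -6.33 and a limma adjusted p of 0.000103. TNFRSF17, a receptor of plasma cells, had medians of 7.65 and 154 FPKM and a limma adjusted p of 0.0526. CD38, of the same marker list, went the other way, with medians of 32.2 and 0.000812 FPKM and a limma adjusted p of 0.00882. SDC1 was not called.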
